A study of Mus musculus with 8 samples.

Results

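The Bcl2 family decides whether a cell commits to the mitochondrial pathway of apoptosis. Here 10 of its genes are described in brain endothelial cells (ECs) of mouse pups with an inducible activating mutation of MAP2K1, the kinase above ERK. The 10 genes were fixed by name. They are *Bcl2*, *Bcl2l1* and *Mcl1*, which encode the survival proteins or guardians, *Bcl2l11*, *Bmf*, *Bad*, *Bbc3* and *Pmaip1*, which encode BH3-only death signals, and *Bax* and *Bak1*, which encode the effectors. All 10 were found among the 49315 genes counted, and all 10 passed the filter on low counts that left 16887 genes for testing.

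As background, the effectors BAX and BAK form pores in the outer mitochondrial membrane, which release cytochrome c and start the caspase cascade. The guardians BCL2, BCL-XL (the product of *Bcl2l1*) and MCL1 bind and restrain the effectors. The BH3-only proteins occupy the guardians or activate the effectors directly, and each answers to its own stress. Of these, BIM (the product of *Bcl2l11*) is phosphorylated by ERK and marked for degradation, so the protein can move apart from its transcript.

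Brain ECs of 4 mutant and 4 wild-type mouse pups were isolated at P9 with beads against CD31, and 1 RNA sequencing library was made per pup. Mutant pups carried the R26GT-Map2k1-GFP allele, which encodes MAP2K1 K57N behind a CAG promoter and a floxed stop cassette, together with Tg-Cdh5CreER, a tamoxifen-inducible Cre driven by an endothelial promoter. Litters received tamoxifen at P1, on a C57BL/6J background. The control pups are labelled wild type, although the study's text names them in one place as Cre carriers, so the genotype of the controls with respect to Cre is not settled. The mutant group is a mixed model. Only a minority of its brain ECs had recombined the allele, so each mutant library mixes mutant and non-mutant ECs, and the transgene was expressed far above the endogenous gene. Below, mutant ECs stands for the ECs of these mixed libraries. In such bulk libraries, fewer cells of a type and less RNA per cell cannot be told apart.

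Library totals were between 24833373 and 34196955 counts on genes. *Map2k1* had between 12660 and 18687 normalized counts in mutant and between 1502 and 1758 in wild-type libraries, so each library matches its label, and these reads come from the transgene and the endogenous gene together. Normalized counts are read counts scaled by TMM to the mean library size. Over all genes tested, 21.5% were higher and 22.9% lower in mutant libraries at an adjusted p under 0.05 (edgeR), the shares to set beside each count below. Of the endothelial markers, 3 of 12 were higher and 5 lower in mutant ECs, and their summed level ranged from 381248 to 455193 in mutant and from 405954 to 490759 in wild-type libraries. Markers of other cells differed too. All 7 markers of the oligodendrocyte lineage were lower in mutant libraries (summed 1279 to 2202, against 3263 to 8917), as were 7 of 8 red blood cell markers (2663 to 8523, against 15881 to 27533), 5 of 8 neuron markers (652 to 988, against 1011 to 2723), and 3 of 7 markers of neutrophils and lymphocytes (333 to 560.3, against 498 to 1011). None of the 9 markers of microglia and macrophages was called (4112 to 14044, against 5117 to 17135). Genes that respond to cell dissociation were lower in mutant libraries for 10 of 14 (170582 to 282081, against 350672 to 449752). Of the other lists, 3 of 10 pericyte and smooth muscle markers were higher and none lower, 2 of 5 fibroblast markers were higher and 1 lower, 1 of 7 astrocyte markers was higher and 1 lower, 1 of 5 platelet markers was lower, and 2 of 13 proliferation genes were higher and 1 lower. No marker was at 0 in all libraries. The part of these differences in the results below was not tested.

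Both effectors rose in mutant ECs, 1 BH3-only gene rose and 1 fell, and 1 guardian fell. *Bax*, *Bcl2l11* and *Bak1* were higher and *Bbc3* and *Bcl2l1* lower, at a Benjamini-Hochberg adjusted p under 0.05 in edgeR's quasi-likelihood test over all genes tested. *Bcl2*, *Mcl1*, *Bmf*, *Bad* and *Pmaip1* did not pass. The shares are those of the whole data set: 3 of 10 members were higher where 21.5% of all genes tested were, and 2 of 10 were lower where 22.9% were, so 5 of 10 differed where 44.4% of genes did. The median log2 fold change was -0.023 over the 10 members and -0.025 over all genes tested. No member passed the study's further limit of a 2-fold change, which 14.0% of genes tested passed (edgeR), and none did with an unadjusted p under 0.05, with DESeq2 or with limma. The groups did not overlap for 3 members, *Bax*, *Bcl2l11* and *Bbc3*, and for 42.5% of all genes tested.

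**Figure D1:**
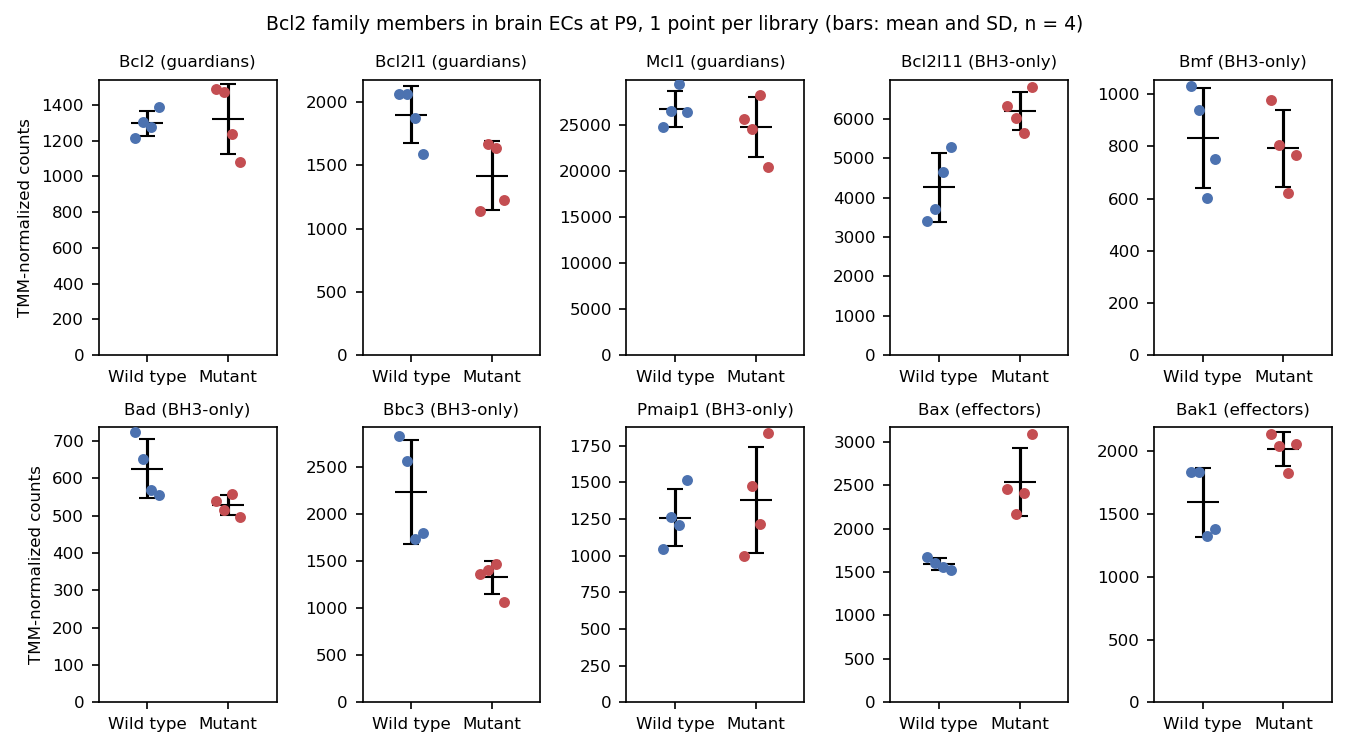
TMM-normalized counts (vertical axis, from 0) of the 10 members in the 4 wild-type (blue) and 4 mutant (red) libraries, with the mean and SD of each group in black. All 4 mutant points lie above all wild-type points for Bax and Bcl2l11 and below them for Bbc3, and the groups overlap for the other 7 members.

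*Bax*, the effector that shuttles between cytosol and mitochondria, changed most clearly. In GRCm38 the gene occupies chromosome 7 from 45461697 to 45466898, minus strand. It had 2459, 2173, 2409 and 3087 normalized counts in mutant libraries 1 to 4, and 1677, 1601, 1558 and 1522 in wild-type libraries 1 to 4. The lowest mutant value exceeded the highest wild-type value, and the wild-type values lay close together. The mean rose from 1589.6 ± 66.5 (SD, n = 4) to 2532 ± 391 (SD, n = 4), a 1.59-fold difference (log2 fold change 0.67, standard error 0.10, adjusted p = 0.000464, edgeR). The call held whichever library was dropped, with log2 fold changes from 0.58 to 0.74. The annotation places another gene, *Gm45808*, over part of *Bax* on the same strand, with a mean of 0.75 raw counts per library.

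*Bak1*, the effector resident in the mitochondrial membrane, lies on chromosome 17 from 27019810 to 27029009. It had 2136, 2039, 1822 and 2051 normalized counts in mutant and 1829, 1828, 1325 and 1377 in wild-type libraries. Mutant replicate 3 lay just below the 2 highest wild-type libraries, so the groups touched. The 1.27-fold difference (0.34 on the log2 scale, standard error 0.12) had an adjusted p of 0.0359 (edgeR). This call held in only 3 of the 8 fits with 1 library left out. The adjusted p (edgeR) was 0.0638 without mutant replicate 1, 0.0733 without mutant replicate 2, 0.0521 without mutant replicate 4, 0.0850 without wild type replicate 3 and 0.0957 without wild type replicate 4, and the log2 fold change was between 0.27 and 0.43 whichever library was left out. The whole span of *Bak1* overlaps that of *Ggnbp1* on the opposite strand (mean of 80.8 raw counts per library). The library kit named in the labels is not described as keeping the strand. Overlap of their exons was not examined, so whether any of these reads belong to *Ggnbp1* is not known.

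*Bcl2l11*, which encodes the BH3-only protein BIM, lies on chromosome 2 from 128126038 to 128162547. Its normalized counts were 6315, 6023, 5651 and 6813 in mutant and 3396, 3698, 4652 and 5281 in wild-type libraries. The lowest mutant library exceeded the highest wild-type library, and wild-type replicates 3 and 4 stood above replicates 1 and 2. The mean rose from 4257 ± 868 (SD, n = 4) to 6200.5 ± 491 (SD, n = 4), a 1.46-fold difference (log2 fold change 0.54, standard error 0.13, adjusted p = 0.00723, edgeR). The call held with every library left out in turn, with log2 fold changes between 0.47 and 0.66.

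*Bbc3*, which encodes the BH3-only protein PUMA, a classical p53 target, moved the other way. It lies on chromosome 7 from 16308393 to 16318205. Mutant libraries had 1363, 1411, 1471 and 1068 normalized counts and wild-type libraries 2835, 2565, 1739 and 1803. Every mutant library was below every wild-type library, and wild-type replicates 1 and 2 were far above replicates 3 and 4. The mean fell from 2235 ± 548 (SD, n = 4) to 1328 ± 179 (SD, n = 4), which is 1.68-fold lower (log2 fold change -0.75, standard error 0.17, adjusted p = 0.00431, edgeR). Left-out libraries moved the log2 fold change between -0.85 and -0.60 and did not end the call. *Bax*, also known as a p53 target, rose in the same libraries.

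The promoters of these 3 members are shown because they are the members whose groups did not overlap, and the motifs are those of factors whose genes are among the transcription regulators counted below. Each runs from 250 bases before to 50 after a RefSeq start site on GRCm38.p6 (300 bases), 5′ to 3′ on the strand of the gene. Capitals mark every match, on either strand, to a FOXO motif (TGTTTAC), an AP-1 motif (TGANTCA), an E-box (CACGTG), an E2F motif (TTTNGCGC) or a p53 half-site of 10 bases.
Bax, chr7:45466849-45467148, minus strand: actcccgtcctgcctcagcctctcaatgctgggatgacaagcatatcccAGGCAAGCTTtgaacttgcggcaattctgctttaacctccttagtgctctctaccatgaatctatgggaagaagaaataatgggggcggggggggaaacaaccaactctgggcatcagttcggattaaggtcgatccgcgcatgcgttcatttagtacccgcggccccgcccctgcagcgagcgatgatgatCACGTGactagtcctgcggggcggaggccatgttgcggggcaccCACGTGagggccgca
Bcl2l11, chr2:128125788-128126087, plus strand: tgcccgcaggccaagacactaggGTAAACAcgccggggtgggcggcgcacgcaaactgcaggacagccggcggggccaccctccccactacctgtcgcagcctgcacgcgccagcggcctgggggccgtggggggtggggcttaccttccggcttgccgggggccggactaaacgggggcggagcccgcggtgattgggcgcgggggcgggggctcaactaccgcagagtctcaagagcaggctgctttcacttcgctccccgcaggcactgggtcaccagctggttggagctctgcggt
Bbc3, chr7:16309333-16309632, plus strand: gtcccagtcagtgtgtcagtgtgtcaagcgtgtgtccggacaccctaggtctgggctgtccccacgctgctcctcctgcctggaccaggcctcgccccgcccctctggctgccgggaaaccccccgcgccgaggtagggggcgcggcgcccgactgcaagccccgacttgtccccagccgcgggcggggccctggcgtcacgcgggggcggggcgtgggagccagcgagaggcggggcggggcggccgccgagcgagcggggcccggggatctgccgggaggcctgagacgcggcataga

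The *Bax* promoter held 2 E-boxes, whose first bases lie at -9 and 36 relative to the start site, and 1 p53 half-site at -201. An E-box is found in 7.15% and a p53 half-site in 8.36% of the 32841 RefSeq promoters of this length. The *Bcl2l11* promoter held 1 FOXO match at -227, in capitals as the reverse complement GTAAACA, a motif in 3.65% of promoters. The *Bbc3* promoter held none of the 5 motifs, and its RefSeq start site lies 1190.0 bases inside the gene as counted. AP-1 and E2F motifs, in 7.81% and 1.38% of promoters, matched in none of the 3. RefSeq promoters were found for 9 of the 10 members, and the other 6 held no match to any of the 5 motifs. Only 1 promoter per member was searched, that with its start site nearest the 5′ end of the gene as counted. *Bcl2l11* and *Bad* have 2 RefSeq promoters and *Bcl2l1*, *Bmf* and *Bbc3* have 3, and the remaining ones were not searched. A match is a string of letters and not evidence of binding.

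Among the guardians, *Bcl2l1* was the only one called. It lies on chromosome 2 from 152780668 to 152831728, and had 1139, 1671, 1638 and 1230.3 normalized counts in mutant and 2067, 2065, 1878 and 1588 in wild-type libraries. Mutant replicates 1 and 4 were well below all wild-type libraries, while replicates 2 and 3 lay above wild type replicate 4. Mutant ECs had 1.34-fold less (-0.42 on the log2 scale, standard error 0.14), with an adjusted p of 0.0293 (edgeR). The adjusted p (edgeR) was above 0.05 without mutant replicate 1 (0.0946), mutant replicate 4 (0.0968), wild type replicate 1 (0.0968), wild type replicate 2 (0.0759) or wild type replicate 3 (0.0513), and the log2 fold change ranged from -0.51 to -0.31. *Bcl2l1* is also known for its high expression in maturing red blood cells, whose markers were lower in mutant libraries as given above, and their part in this fall was not tested.

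*Mcl1*, which encodes a short-lived guardian, was by far the most abundant member. It lies on chromosome 3 from 95658788 to 95663176, and had 25713, 24614, 28308 and 20436 normalized counts in mutant and 24759, 26532, 29446 and 26419.6 in wild-type libraries. The groups overlapped, with mutant replicate 4 lowest. The log2 fold change of -0.11 corresponds to -7.55%, with a 95% interval from -21.2% to 8.47% (adjusted p = 0.403, edgeR).

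*Bcl2*, the founding member of the family, lies on chromosome 1 from 106538178 to 106714274. Mutant libraries had 1490.3, 1471, 1238 and 1081 normalized counts and wild-type libraries 1216, 1306, 1277 and 1387. The mutant libraries spread to both sides of the wild-type range. The difference was 1.74% with a 95% interval from -13.4% to 19.6% (adjusted p = 0.865, edgeR), and its sign was negative without mutant replicate 1 (-0.013 on the log2 scale) or mutant replicate 2 (-0.031).

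The other BH3-only genes did not pass the test either. *Bad*, whose protein is held inactive by 14-3-3 proteins when phosphorylated, lies on chromosome 19 from 6941861 to 6951898. It had 538, 516, 558 and 497 normalized counts in mutant and 725, 652, 569 and 554 in wild-type libraries. Mutant replicate 3 alone lay within the wild-type range. The log2 fold change was -0.25 with a 95% interval from -0.48 to -0.02 (adjusted p = 0.0766, edgeR), and the adjusted p fell to 0.0463 without wild type replicate 4 (edgeR). *Bad* overlaps *Gpr137* on the opposite strand (mean of 719 raw counts per library), so part of these reads may belong to that gene.

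*Bmf*, whose protein is tethered to the actin cytoskeleton, lies on chromosome 2 from 118528757 to 118549687. It had 976, 805, 620.1 and 768 normalized counts in mutant and 1033, 939, 602 and 752 in wild-type libraries. In both groups replicate 3 was lowest and replicate 1 highest. The difference of -4.78% had a 95% interval from -27.5% to 25.1% (adjusted p = 0.770, edgeR).

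*Pmaip1*, which encodes NOXA, the BH3-only partner of MCL1, lies on chromosome 18 from 66458604 to 66465550. Its normalized counts were 998, 1474, 1216 and 1833 in mutant and 1046, 1261, 1208 and 1518 in wild-type libraries. The mutant range enclosed the wild-type range. The difference of 9.87% had a 95% interval from -16.1% to 43.8% (adjusted p = 0.556, edgeR), wide enough to hold a change as large as that of *Bak1*.

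**Figure D2:**
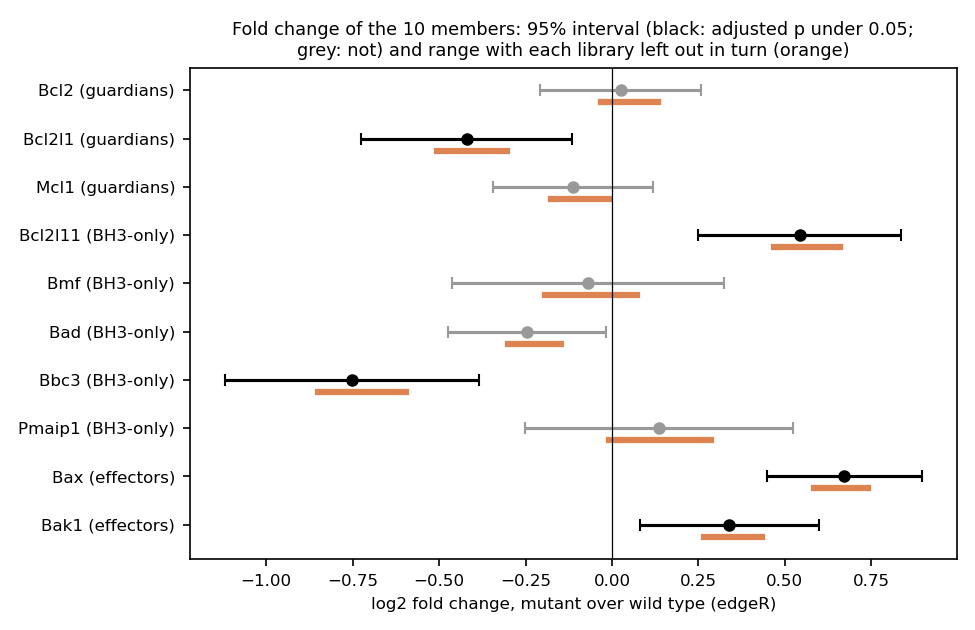
Log2 fold change of each member, mutant over wild type (horizontal axis), with its 95% interval in black where the adjusted p was under 0.05 and in grey where it was not, and the range with each library left out in turn in orange. Bax (0.67) and Bcl2l11 (0.54) lie to the right and Bbc3 (-0.75) to the left with orange ranges clear of 0, while those of Bcl2, Bmf and Pmaip1 cross it.

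The sample labels carry 3 prefixes, one for replicates 1 and 2 of each group, one for replicate 3 and one for replicate 4, and what they stand for is not stated. The study chose wild-type pups from the litters of the mutants, but the labels tie no pup to a litter. Within prefixes, the log2 difference of *Bax* was 0.50, 0.63 and 1.02 in that order. For *Bcl2l11* it was 0.80, 0.28 and 0.37, and for *Bbc3* -0.96, -0.24 and -0.76. *Bak1* differed by 0.19, 0.46 and 0.57, and *Bcl2l1* by -0.58, -0.20 and -0.37. The 5 called members therefore kept their direction within all 3 prefixes, of which those with 1 library a group allow no test. So did *Mcl1* (-0.027, -0.057 and -0.37), *Bad* (-0.38, -0.028 and -0.16) and *Pmaip1* (0.079, 0.0091 and 0.27), which were not called. A kept direction therefore does not set the called members apart. For *Bax*, *Bcl2l11* and *Bbc3*, whose groups do not overlap, this direction was fixed in advance for any split of the libraries. The sizes were uneven: *Bcl2l11* and *Bbc3* differed most in the prefix of replicates 1 and 2, and *Bax* in that of replicate 4. *Bcl2* changed sign between prefixes, from 0.23 to -0.36, and so did *Bmf* (-0.15, 0.043 and 0.029).

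To compare members with each other, counts were divided by the summed exon length of each gene and expressed as RPKM. In wild-type ECs *Mcl1* stood at 265 ± 19.2 RPKM (SD, n = 4), 7.45 times the level of the next member. *Bbc3* (35.5 ± 8.72) and *Bax* (34.1 ± 1.43) followed with overlapping ranges. Then came *Bak1* (22.3 ± 3.88), *Bcl2l11* (17.9 ± 3.65), *Pmaip1* (16.1, between 13.3 and 19.4), *Bcl2l1* (14.0 ± 1.66) and *Bad* (10.5 ± 1.33), all below *Bax* in every library, in which each range overlapped that of its neighbour. *Bmf* (5.35 ± 1.24) and *Bcl2* (4.78 ± 0.262) were lowest, overlapped each other and lay below the range of *Bad*. In mutant ECs the second place passed to *Bax* (54.3 ± 8.38 RPKM, SD, n = 4), and *Bbc3* (21.1 ± 2.85) fell to place 5, behind *Bak1* (28.2 ± 1.88) and *Bcl2l11* (26.1 ± 2.06). The mutant ranges of *Bak1* and *Bcl2l11* overlapped, and those of *Bbc3* and *Pmaip1* did too. The last 5 places, from *Pmaip1* to *Bcl2*, kept the same order in both groups. The order depends on the length used: per coding length, *Bcl2l11*, which has 8029 exon bases for 588 coding bases, took place 2 in both groups.

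**Figure D3:**
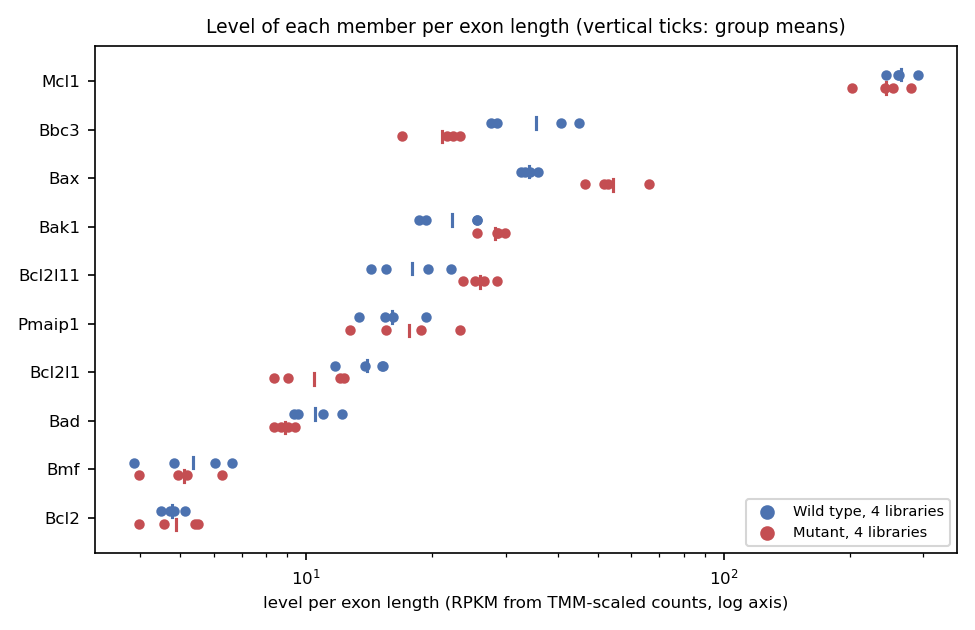
Level of each member per exon length, as RPKM from TMM-scaled counts on a log axis, in wild-type (blue) and mutant (red) libraries, 1 point per library with a vertical tick at the group mean, ordered by the wild-type mean. Mcl1 stands far to the right of all others, Bax and Bcl2l11 move right in mutant libraries and Bbc3 moves left.

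Ratios of members within a library compare transcript levels and not proteins, and are a description with no test. *Bax* stood at 3.78 to 7.30 times *Bcl2l1* per exon length in mutant and at 2.26 to 2.79 times in wild-type libraries. Against *Bcl2* the ratio was 8.58 to 16.6 and 6.37 to 8.01, and against *Mcl1* it was 0.185 to 0.328 and 0.115 to 0.147. In each of these ratios to a guardian the groups did not overlap, and *Bax* remained below *Mcl1* in all 8 libraries. The groups did not overlap for *Bax* alone either, so these ratios and the effector share below are not results separate from its rise. The groups overlapped for *Bax* over *Bak1* (1.63 to 2.30 in mutant, 1.34 to 1.80 in wild-type libraries). They also overlapped for *Bbc3* over *Bcl2l1* (1.82 to 2.58, against 2.00 to 2.96) and narrowly for *Bcl2l11* over *Mcl1* (0.0850 to 0.142, against 0.0584 to 0.0851). *Bcl2l11* over *Bcl2l1* did not overlap (1.97 to 3.17, against 0.938 to 1.90), and *Bcl2l11* alone did not either. The ratio of *Bcl2l11* to *Bbc3* was 1.02 to 1.69 in mutant and 0.317 to 0.775 in wild-type libraries, per exon length and without overlap. That separation follows from the members alone, because the groups overlap for neither gene and the genes moved in opposite directions. Which of the pair is the more abundant in wild-type ECs depends on the length used, since per coding length *Bcl2l11* stood above *Bbc3* in both groups. Effectors together made up 17.2% to 24.2% of the summed level of the 10 members in mutant and 11.9% to 14.8% in wild-type libraries. The shares of guardians (54.8% to 65.9%, against 63.3% to 70.7%) and of BH3-only genes (16.9% to 21.0%, against 17.4% to 21.9%) overlapped. All these shares are per exon length. They depend on the length used, as the order of members does, and were not computed per coding length.

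Around the 10 members, 103 other genes of the apoptosis pathway were tested, and edgeR called 35 higher and 15 lower at an adjusted p under 0.05. Over all genes tested, 21.5% were higher and 22.9% lower, which are the shares to set beside each list below. The lists were chosen with earlier results of these data known. Their counts beside these shares are therefore a description and no test of a list. Among 12 other family genes tested, 5 were higher and 1 was lower. The BH3-only genes *Bik* and *Bid* rose most. *Bik* rose by 2.18 on the log2 scale, from 35.1 ± 9.38 to 159.6 ± 28.1 normalized counts (SD, n = 4; adjusted p = 5.99e-05, edgeR). *Bid*, whose product links death receptors to mitochondria, rose by 1.85 on the same scale (adjusted p = 0.00473, edgeR), with mutant replicate 4 far above the others. *Bnip3* (0.76) and the guardian gene *Bcl2l2* (0.42) also rose, and *Bnip3l*, a mitophagy receptor gene, fell by 0.34. *Bnip3* lost its call in 7 of the 8 fits with 1 library left out.

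Downstream of the effectors, 8 of 21 genes of the apoptosome, caspases and their inhibitors were higher and 1 was lower. *Apaf1*, the scaffold that cytochrome c binds, rose 2.82-fold from 1873 ± 128 to 5272 ± 853 normalized counts (SD, n = 4; adjusted p = 7.18e-06, edgeR). The cytochrome c gene *Cycs* (1.41-fold), the channel gene *Vdac1* (1.36-fold) and the inhibitor gene *Birc5* (1.32-fold) rose as well. *Birc5* lost its call in 5 of 8 fits with a library left out. *Xiap*, a direct caspase inhibitor and the gene of highest mean count in the list, had a log2 fold change of 0.18 (adjusted p = 0.0937, and 0.0334 without wild type replicate 4, edgeR). In the death receptor pathway 4 of 10 genes were higher and 1 lower. *Ripk3* rose 2.57-fold, *Tnfrsf1a* 1.97-fold, *Tnfrsf10b* 1.43-fold and *Cflar*, which restrains death receptor signalling, 1.32-fold, while the ligand gene *Tnfsf10* was 1.94-fold lower.

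Of 20 genes known as p53 targets, 10 were higher and 3 lower. Their median log2 fold change was 0.31, and that of all genes tested was -0.025. *Eda2r*, a receptor of the TNF family, rose from 34.9 ± 7.10 to 1009 ± 505 normalized counts (SD, n = 4; log2 fold change 4.85, adjusted p = 6.35e-06, edgeR). *Phlda3* (2.65), *Aen* (1.22), *Zmat3* (1.21) and *Gtse1* (1.12) rose, and *Plk3* (-1.06) and *Plk2* (-0.43) fell. *Plk2*, the gene of highest mean count in the list, lost its call without wild type replicate 1 (adjusted p = 0.0919) and without wild type replicate 2 (0.0768, edgeR). *Trp53* itself, picked after its value was seen, had a log2 fold change of 0.12 (adjusted p = 0.295, edgeR).

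Of 16 transcription regulators of BH3-only genes, 4 were higher and 8 lower. *Myc* rose 2.30-fold and *Foxo1* 1.40-fold, whereas *Foxo4* (2.01-fold), *Jun* (2.18-fold), *Ddit3* (1.54-fold) and *Atf3* (1.44-fold) were lower. *Jun* and *Atf3* also belong to the dissociation list given above. Of 26 genes for proteins that modify or bind members, 5 were higher (19.2%, where 21.5% of all genes tested were) and 1 lower. *Rps6ka2*, an ERK-activated kinase gene, rose 1.44-fold, *Akt1* 1.36-fold, *Ppp3ca* 1.30-fold and *Usp9x*, which stabilizes MCL1, 1.29-fold. The 14-3-3 gene *Ywhaz* rose 1.14-fold, a call that was lost without mutant replicate 2, wild type replicate 1, wild type replicate 2 or wild type replicate 3 (adjusted p between 0.0522 and 0.131, edgeR). The *Usp9x* call was lost without wild type replicate 2 (adjusted p = 0.0536, edgeR). *Dynll2*, a dynein light chain that tethers BMF, was 1.43-fold lower, and *Huwe1*, a ligase for MCL1, had a log2 fold change of 0.01 (adjusted p = 0.908, edgeR).

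**Figure D4:**
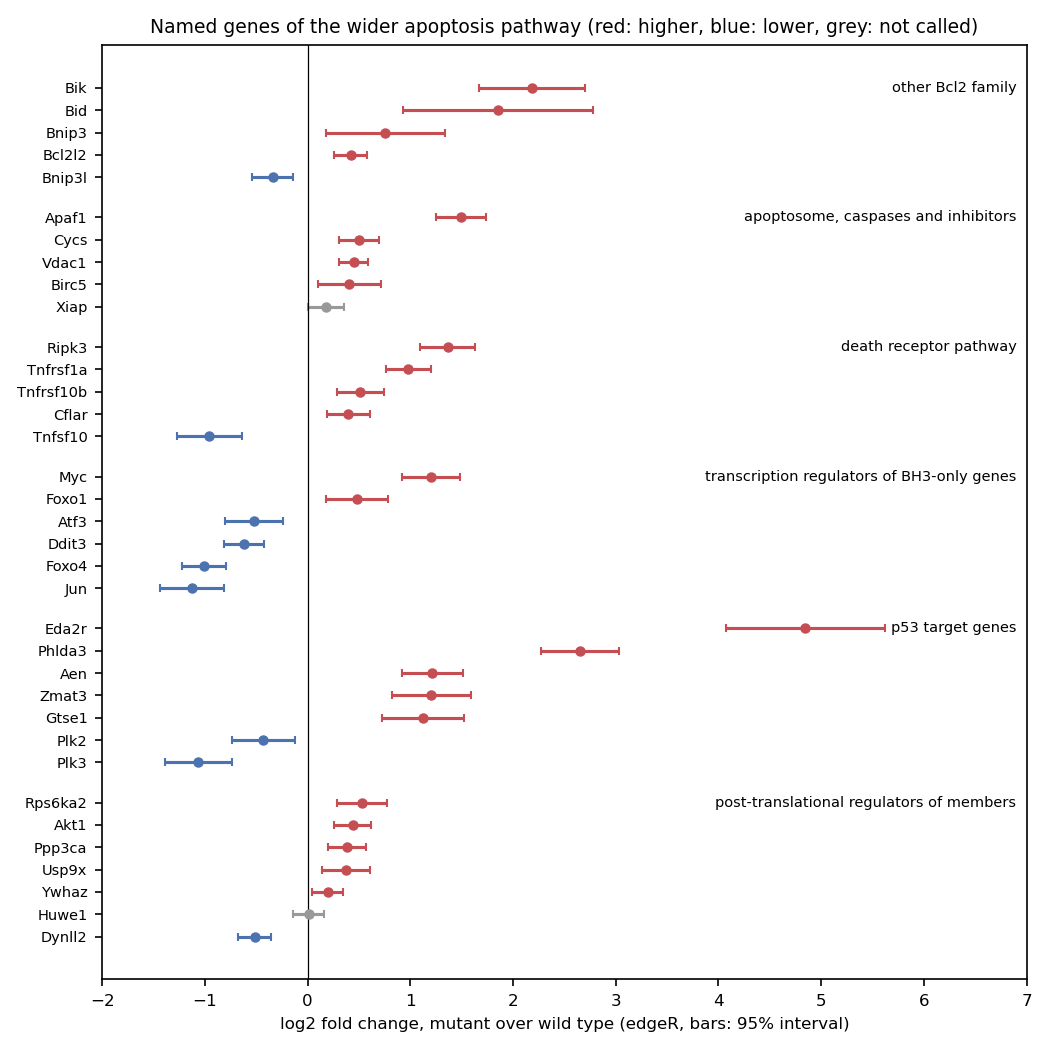
Log2 fold change, mutant over wild type (horizontal axis), with 95% interval, of the genes described in the wider pathway by list, in red where higher, blue where lower and grey where the adjusted p was 0.05 or more. Apaf1, Bik, Bid, Ripk3, Eda2r and Phlda3 lie furthest right in their lists, and Jun, Foxo4, Plk3 and Tnfsf10 furthest left.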

How the data were processed

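The authors used Trimmomatic for trimming and STAR for mapping to GRCm38, and deposited whole-number counts per gene for each of 8 libraries, with exon positions and summed exon lengths. The counting program, strand setting and handling of reads that map to several places are not given in the sources used here. A second deposited set, normalized with DESeq2 by the authors, was not used. Symbols were found for 48970.0 of 49315 gene identifiers.

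The counts were fitted with edgeR 4.0.16 under R 4.3.3 using filterByExpr (minimum count 10), TMM, glmQLFit and glmQLFTest with no covariate, and Benjamini-Hochberg adjustment over 16887 genes. The quasi-likelihood standard errors gave the 95% intervals. RPKM were computed from the TMM-scaled counts. Alternatives used limma 3.58.1, DESeq2 1.42.0, other scalings and filters, blocks, and each library left out. On simulated counts over 16628 genes, this comparison recovered 46 of 50 genes raised and 42 of 50 lowered by 1 on the log2 scale, with 8 false calls. The simulation changed a far smaller share of genes than the 44.4% called in the data. No member changed by as much as 1, so the simulation does not give the recovery or false calls for the members. Library totals of 24833373 to 34196955 counts limit precision little for the members, whose raw counts were 426 to 34144. Same-group libraries differed beyond sampling noise in all 12 pairs (chi-square over its degrees of freedom 6.70 to 37.1), so each counts as 1 replicate.

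The 10 members and all lists were chosen with earlier results of these data known. Other genes are named by a rule: up to 6 per list with the largest fold change among called genes whose higher group averaged 100 normalized counts or more, and the gene of highest mean count whatever its result. Some genes that meet this rule are not reported here. Marker lists are given by counts and summed level. Promoters and motif shares come from RefSeq sequences on GRCm38.p6, and overlaps and coding lengths from GENCODE. The fit reported has no term for the label prefixes, which were a block in an alternative.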

Additional observations from a re-analysis of the deposited data

Results flagged for a closer look

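None of the 10 members had a library that stood apart from the other 3 of its group by Dixon's ratio of gap to range at its 95% critical value. Among 96 groups of 4 values examined, 5 did, all in the wider pathway, and chance alone marks about 1 in 20 groups. *Bid* had 606 normalized counts in mutant replicate 4 against 178 to 232 in the other mutant libraries. *Ddit3* had 775 in mutant replicate 3 against 634 to 645. *Plk2* had 23698 in mutant replicate 4 against 34140.1 to 36215. In wild-type libraries, replicate 4 stood apart for *Foxo1*, with 6087 against 4246 to 4411, and for *Huwe1*, with 17950.0 against 15817 to 16175.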

How the results depend on the processing

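*Bax*, *Bcl2l11* and *Bbc3* kept direction and call in all 18 alternatives, 8 of which left out a library. Members lower in mutant ECs numbered 1 in place of 2 against a 1.2-fold change (glmTreat) and 1 to 3 with a library left out (3 without wild type replicate 4, where *Bad* was called). Against a 1.2-fold change, adjusted p was 0.139 for *Bcl2l1* and 0.243 for *Bak1*, and 22 other pathway genes were higher and 8 lower. Of all 16887 genes tested, 4799 were called against that change. With upper quartile scaling, which moved the median of all genes by -0.06, *Bak1* lost its call (adjusted p = 0.0604, edgeR), *Bad* gained one (0.0280), and the log2 fold changes of *Bcl2* and *Huwe1* were -0.041 and -0.052. The sign also changed for *Bcl2* (-0.031 to 0.13 over left-out libraries, -0.013 and -0.031 without mutant replicates 1 and 2), *Bmf* (-0.19 to 0.071, with 0.039 without mutant replicate 3 and 0.071 without wild type replicate 1), *Pmaip1* (-0.0083 to 0.29, lowest without mutant replicate 4) and *Huwe1* (-0.0033 to 0.050, lowest without wild type replicate 2). These causes were not tested. The lower transcription regulators numbered 5 in place of 8 without mutant replicate 3, mutant replicate 4 or wild type replicate 1.

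The replicate numbers were not taken as pairs. Correlations of same-numbered deviations were 0.20, 0.21, 0.29 and 0.024, of which the last is under 0.1, and the labels name no litter. With the replicate block, 8162 genes were called in place of 7504, and 3 members were higher and 2 lower as without it. A block for label prefix gave 8610.0 called genes, the members' calls were again 3 higher and 2 lower, and 40 other pathway genes were higher and 21 lower in place of 35 and 15. *Xiap* was called under both blocks (adjusted p = 0.0482 with the replicate block and 0.0417 with the prefix block, edgeR). *Ywhaz* lost its call with the replicate block (0.0529), and also with upper quartile scaling (0.138), with no filter on low counts (0.134) and against a 1.2-fold change (0.794). Mutant replicates 1 to 4 did not each correlate best with their own number.

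The level per protein length was not run, and coding length, chosen after seeing the data, took its place.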
